A study of Mus musculus with 2 samples.

Results

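The collagens outside the basement membrane network were described by their RNA levels in whole uteri, taken from 2 mice at pregnancy day 4. They are the genes of the main table whose symbol is Col, a type number, the letter a and a chain number, without the 6 type IV genes. This choice used names only and gave 38 of 22740 genes. The animals are independent C57BL/6 mice, are titled as wild type and belong to 1 group with no treatment, so there is no contrast between conditions. Each animal gave 1 library, called uterus 1 and uterus 2 here. The tissue was whole uterus, so stroma, muscle, epithelium, vessels and leukocytes are mixed, and fewer cells of a type cannot be told apart from less RNA per cell. Values are the authors' RPKM, reads scaled to transcript length and library size, so levels of different genes can be compared as far as the length used for each gene holds. The whole reads behind them were recovered and summed to 3834833 in uterus 1 and 4259318 in uterus 2.

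Collagens are proteins of 3 chains wound into a triple helix, and a helix needs glycine at the first of every 3 residues. Fibrillar types I, II, III, V, XI, XXIV and XXVII build the load-bearing fibrils, with types V and XI controlling their diameter. Fibril-associated collagens (FACITs) coat those fibrils, and type VI forms beaded filaments around cells. Types XV and XVIII, the multiplexins, lie at the border between basement membrane and stroma. In the mouse uterus the stroma and the muscle wall are rich in types I, III, V and VI, and the matrix is remodelled around implantation.

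The glycine rule is visible in the coding sequence, because glycine codons have the form GGN. Many fibrillar collagen exons are 54 bases long and hold 6 units of 9 bases, each opened by GGN. The following exons belong to the fibrillar members with the highest levels. Each is the first inner coding exon of 54 bases in frame with this repeat, read 5′ to 3′ from build NCBIM37 (mm9). The GGN codon that opens each unit is in capitals.
Col3a1, coding exon 6, chr1:45382205-45382258, plus strand: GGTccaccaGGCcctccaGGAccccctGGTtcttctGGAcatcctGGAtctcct
Col1a1, coding exon 8, chr11:94801218-94801271, plus strand: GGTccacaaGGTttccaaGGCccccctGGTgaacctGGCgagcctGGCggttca
Col1a2, coding exon 8, chr6:4465481-4465534, plus strand: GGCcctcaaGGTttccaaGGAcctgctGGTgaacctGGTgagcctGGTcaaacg
Col5a2, coding exon 6, chr1:45491737-45491790, minus strand: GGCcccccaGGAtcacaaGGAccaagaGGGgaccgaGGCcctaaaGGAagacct
Col5a1, coding exon 15, chr2:27820771-27820824, plus strand: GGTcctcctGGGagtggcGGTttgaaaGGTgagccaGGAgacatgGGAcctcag

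The exons of Col1a1 and Col1a2, whose chains assemble into the same helix, were identical at 42 of 54 positions. Those of the genome neighbours Col3a1 and Col5a2 were identical at 29 of 54. Each type VI gene has 2 or 3 such exons of 54 bases and more of 63 bases, which hold 7 units. There were 7 of the longer kind in Col6a1 to Col6a4 and 6 in Col6a5 and Col6a6. The first of these longer exons in Col6a1 and Col6a2, whose chains also assemble together, were identical at 28 of 63 positions. That is 44.4%, a lower share than the 53.7% of Col3a1 and Col5a2. The first exon of 63 bases is shown for the 3 chains with the highest levels.
Col6a1, coding exon 15, chr10:76180540-76180602, minus strand: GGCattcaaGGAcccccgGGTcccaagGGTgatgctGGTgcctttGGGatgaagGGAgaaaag
Col6a2, coding exon 11, chr10:76072905-76072967, minus strand: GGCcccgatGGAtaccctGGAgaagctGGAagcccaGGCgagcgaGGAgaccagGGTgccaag
Col6a3, coding exon 17, chr1:92689591-92689653, minus strand: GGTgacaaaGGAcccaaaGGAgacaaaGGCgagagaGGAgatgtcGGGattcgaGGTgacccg

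Over the longest coding sequence of each gene in GENCODE M1, the length of the repeat set the fibrillar genes apart from the other classes. The longest unbroken run of GGN units was 344 in Col3a1, 339 in Col1a2, Col2a1 and Col5a2, 338 in Col1a1, Col5a1, Col11a1 and Col11a2, and 337 in Col5a3. The 2 remaining fibrillar genes had shorter runs, 216 units in Col24a1 and 217 in Col27a1. Col6a1 and Col6a2 held 87 units each, Col6a3 and Col6a4 45 each, and both multiplexins 30 units between interruptions. Every one of the 38 members held a run of at least 10 units, against 0.277% of the 20232 other genes with a coding sequence. The 6 type IV genes, counted among those others, all held such a run too (median 43.5 units). Of the inner coding exons, 48.6% of 627 were 54 bases long in fibrillar genes, 26.4% of 413 in FACITs, 8.25% of 206 in type VI genes and 9.27% of 151 in transmembrane genes. The FACITs were mixed, from 6.35% in Col12a1 to 45.9% in Col22a1 and 46.7% in Col9a2 and Col9a3. The latter shares lie above the 42.9% of the fibrillar Col1a1. The pooled share was 5.19% in multiplexins, 5.17% in Col7a1, 4.65% in Col26a1 and Col28a1 together, and 0.415% in genes outside the 38 members. Within the latter it was 4.23% in the type IV genes.

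**Figure D1:**
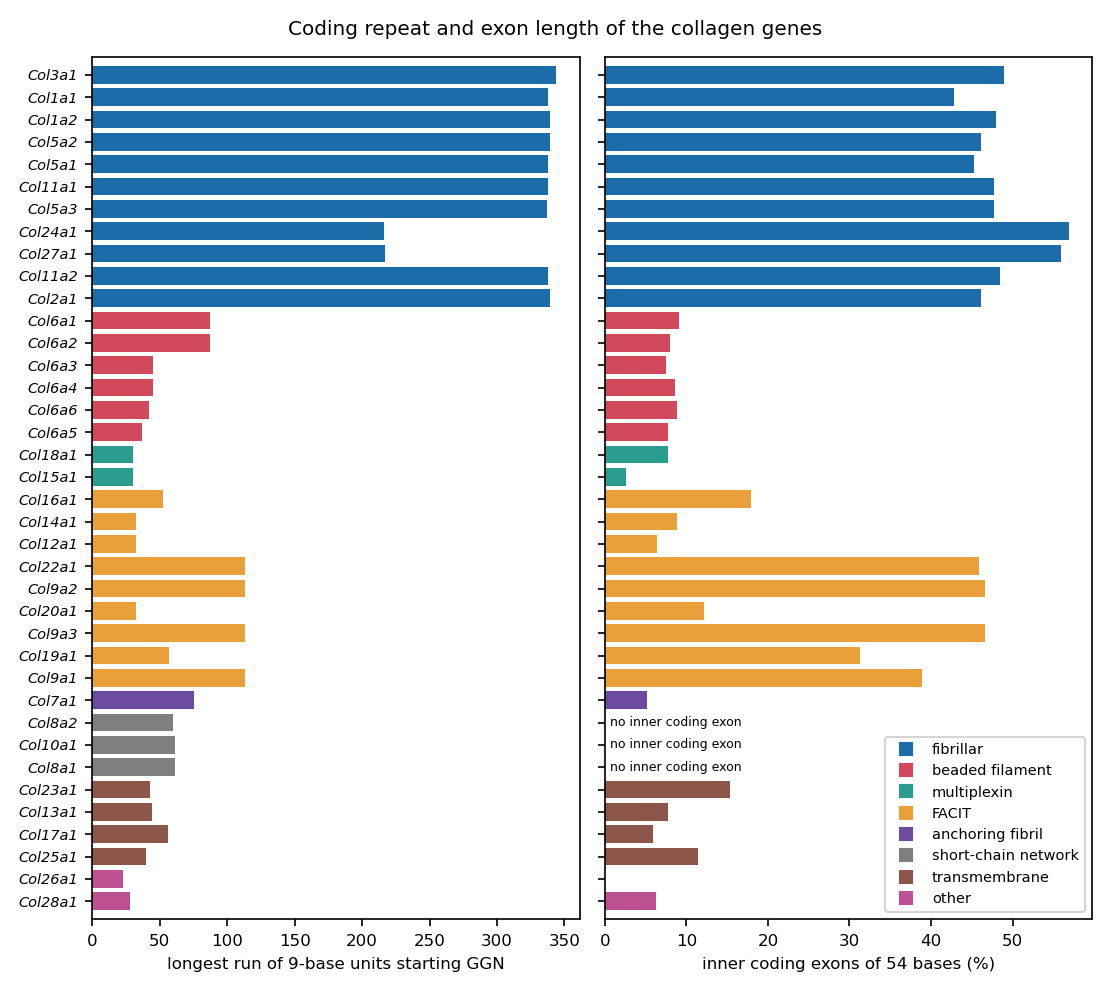
Left, the longest run of 9-base units starting with GGN in the coding sequence (number of units). Right, the share of inner coding exons that are 54 bases long (percent), for each of the 38 genes, coloured by class and ordered by level within a class. Fibrillar genes hold runs of 216 to 344 units, and every other member has 113 or fewer.

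Among the 38 genes, 28 were detected at 1 RPKM or more in both uteri, against 58.4% of all genes. At least 10 RPKM in both was reached by 19 members and 30.4% of all genes, and at least 100 RPKM in both by 9 members and 1.92% of all genes. These 9 were Col3a1, Col1a1, Col1a2, Col6a1, Col6a2, Col5a2, Col18a1, Col6a3 and Col15a1. The median member lay at 9.95 ± 0.106 RPKM (SD, n = 2), and the median of all genes at 3.26 ± 0.0405 RPKM. The 38 genes held 1.41% ± 0.0959 (SD, n = 2) of the summed RPKM. The 6 type IV genes held 0.113% ± 0.0107. Per gene they were not lower: all 6 were detected, and their median was 51.1 ± 1.15 RPKM (SD, n = 2).

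**Figure D2:**
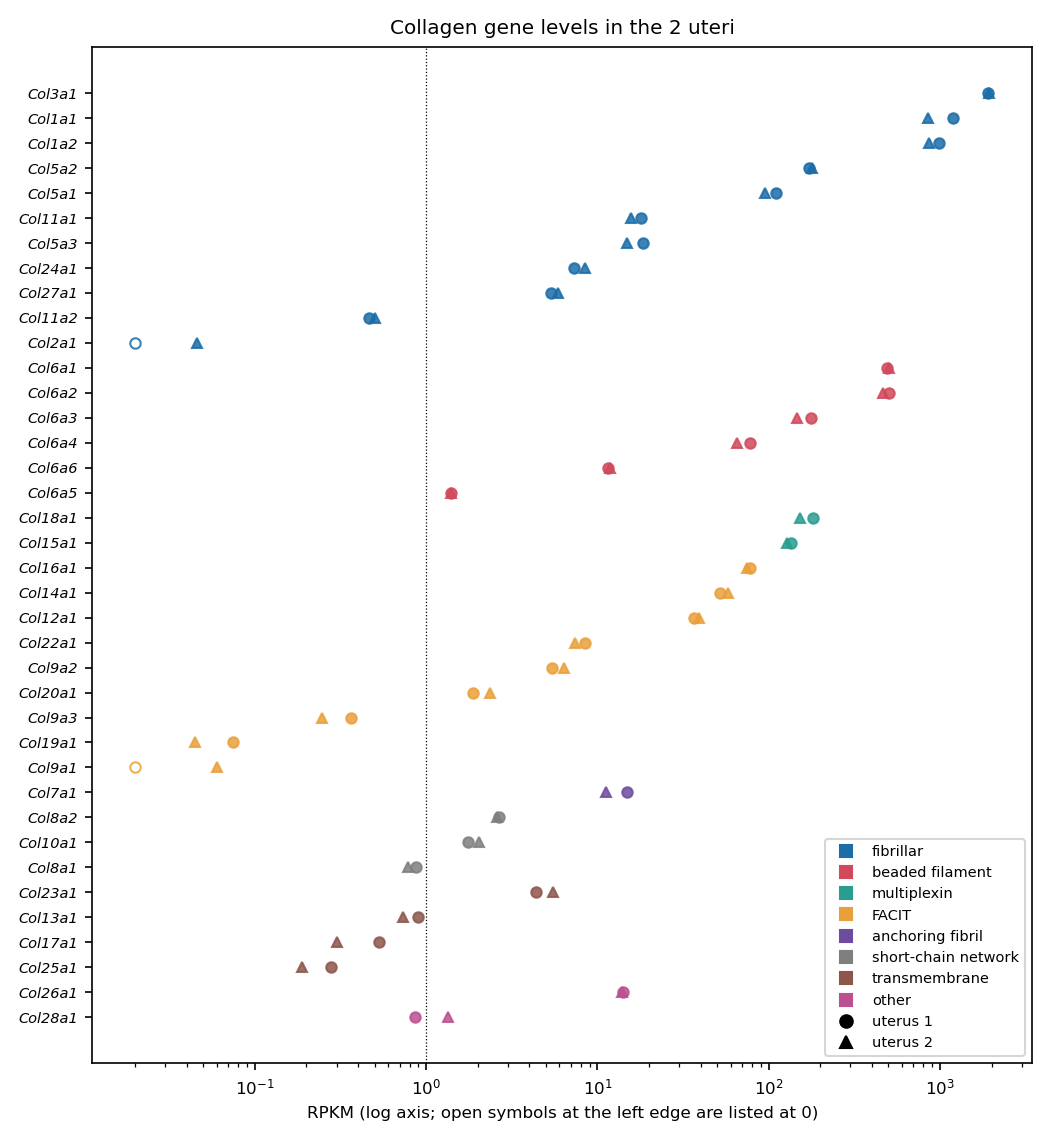
Level of each collagen gene in RPKM (log axis), circles for uterus 1 and triangles for uterus 2, grouped and coloured by class, with the detection limit of 1 RPKM as a dotted line. Col3a1, Col1a1 and Col1a2 lie highest, and Col2a1 and Col9a1 are listed at 0 in uterus 1 (open symbols at the left edge).

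The fibrillar genes made up 70.5% ± 0.706 (SD, n = 2) of the summed collagen RPKM, and 65.0% ± 0.905 came from Col3a1, Col1a1 and Col1a2 alone. Col3a1 (NM_009930, chr1:45368383-45406551), the chain of type III collagen, lay at 1908 RPKM (40705 reads) in uterus 1 and reached 1939 RPKM (45924 reads) in the other animal. Paired values give uterus 1 first. It ranked 9 of all 22740 genes by mean. Col1a1 (NM_007742, chr11:94797584-94813170) lay at 1184 and 851 RPKM on 21332 and 17009 reads. Col1a2 (NM_007743, chr6:4455697-4491543) lay at 988 and 857 RPKM on 19475 and 18756 reads. Col3a1 was thus above both type I chains in each animal.

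Type V collagen is built into the same fibrils. Col5a2 (NM_007737, chr1:45431176-45560127) lay at 172 and 178 RPKM and Col5a1 (NM_015734, chr2:27741945-27895030) at 110 and 94.9 RPKM. Col5a3, a less widespread chain, lay at 18.6 and 14.9 RPKM. Col11a1, whose product can replace type V chains, lay in the same range at 18.1 and 15.8 RPKM. The other type XI gene, Col11a2, lay at 0.465 and 0.503 RPKM on 10 and 12 reads. The remaining fibrillar genes were low but detected: Col24a1 lay at 7.35 and 8.49 RPKM and Col27a1 at 5.36 and 5.85 RPKM.

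Col2a1, which makes the main collagen of cartilage, was listed at 0 in uterus 1 and rested on 1 read in uterus 2. Other cartilage collagens were low as well. Col9a1 was listed at 0 in uterus 1 and held 1 read in uterus 2, Col9a3 held 4 and 3 reads, and Col10a1, of hypertrophic cartilage, lay at 1.75 and 2.03 RPKM on 21 and 27 reads. Col9a2 stood above its partner genes at 5.41 and 6.42 RPKM on 57 and 75 reads. Of the 6 cartilage markers listed for comparison, Hapln1 was the one detected, at 1.19 and 1.53 RPKM, and Matn1 and Matn3 were listed at 0 in both uteri. None of 4 bone markers was detected.

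The beaded-filament genes came next, with 20.7% ± 0.527 (SD, n = 2) of the summed collagen RPKM. Col6a1 (NM_009933, chr10:76171537-76188789) lay at 491 and 502 RPKM and Col6a2 (NM_146007, chr10:76058501-76086149) at 505 and 466 RPKM. Col6a3 (NM_001243009, chr1:92663435-92740548), the third chain of the classical filament, lay at 176 and 147 RPKM. The chains that resemble Col6a3 differed widely from each other. Col6a4 lay at 77.8 and 65.4 RPKM, Col6a6 at 11.6 and 11.8 RPKM, and Col6a5 at 1.40 and 1.39 RPKM on 50 and 55 reads.

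The multiplexins followed with 5.01% ± 0.105 (SD, n = 2). Col18a1 (NM_001109991, chr10:76514924-76576450), the source of the endostatin fragment, lay at 181 and 152 RPKM. Col15a1 (NM_009928, chr4:47220884-47326037) lay at 135 and 128 RPKM. Col18a1 was the higher of both genes in each animal.

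FACITs held 3.13% ± 0.270 (SD, n = 2), and 6 of the 9 were detected. Col16a1 led at 77.9 and 74.5 RPKM. Col14a1 (NM_181277, chr15:55139305-55352358) lay at 52.0 and 58.2 RPKM and Col12a1 (NM_007730, chr9:79446798-79566485) at 36.7 and 39.1 RPKM, both being collagens of the fibril surface. Col22a1 lay at 8.47 and 7.44 RPKM and Col20a1 at 1.87 and 2.36 RPKM. Col19a1 held 3 and 2 reads.

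The remaining classes were low. Col7a1, which forms the anchoring fibrils below stratified epithelia, lay at 14.8 and 11.3 RPKM on 523 and 441 reads. Markers of such epithelia were mostly at or near 0, with Krt5 and Krt14 listed at 0 in both uteri and Krt10 at 3.74 and 2.47 RPKM. Col26a1 lay at 14.2 and 13.9 RPKM. Of the short-chain genes, Col8a2 lay at 2.65 and 2.60 RPKM and Col8a1 at 0.868 and 0.782 RPKM.

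Of the 4 transmembrane collagens, Col23a1 was the one detected, at 4.37 and 5.47 RPKM. Col13a1 lay at 0.899 and 0.729 RPKM, Col17a1, of the epithelial hemidesmosome, at 0.529 and 0.303 RPKM, and Col25a1 at 0.279 and 0.188 RPKM, each on 11 reads or fewer per library. Col28a1 lay at 0.863 and 1.33 RPKM on 14 and 24 reads, on either side of the detection limit.

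Chains that assemble together were compared as a ratio of RPKM within each uterus. The protein of type I collagen contains more Col1a1 chain than Col1a2 chain. The RNA ratio of Col1a1 to Col1a2 was 1.199 in uterus 1 (95% exact counting interval 1.18 to 1.22) and 0.993 in uterus 2 (0.972 to 1.01). These intervals do not overlap, so the ratio was not the same in both libraries beyond counting error. Its level depends on the lengths used. The deposited values rest on 4698 bases for Col1a1 and 5143 for Col1a2, while the GENCODE M1 transcripts have 5930 and 5347. With the latter, an alternative chosen after seeing the data, the ratio was 0.988 (0.969 to 1.01) and 0.818 (0.801 to 0.835). Which type I chain was higher is therefore not settled by these values, while the lower ratio in uterus 2 does not depend on length. Col3a1 exceeded Col1a1 by 1.61 times in uterus 1 and 2.28 times in uterus 2.

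The ratio of Col5a2 to Col5a1 was 1.56 (1.496 to 1.636) in uterus 1 and 1.87 (1.79 to 1.96) in uterus 2. Col6a1 and Col6a2 were close to equal, with ratios of 0.973 (0.942 to 1.01) and 1.08 (1.04 to 1.11). Both exceeded Col6a3, for Col6a1 by 2.80 times in uterus 1 and 3.41 times in uterus 2. The ratio of Col6a3 to Col6a4 hardly moved between animals, at 2.26 (2.15 to 2.37) and 2.25 (2.14 to 2.36). Col11a1 exceeded Col11a2 by 38.8 times (20.9 to 81.5) and 31.3 times (17.8 to 61.1), wide intervals set by the few Col11a2 reads.

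**Figure D3:**
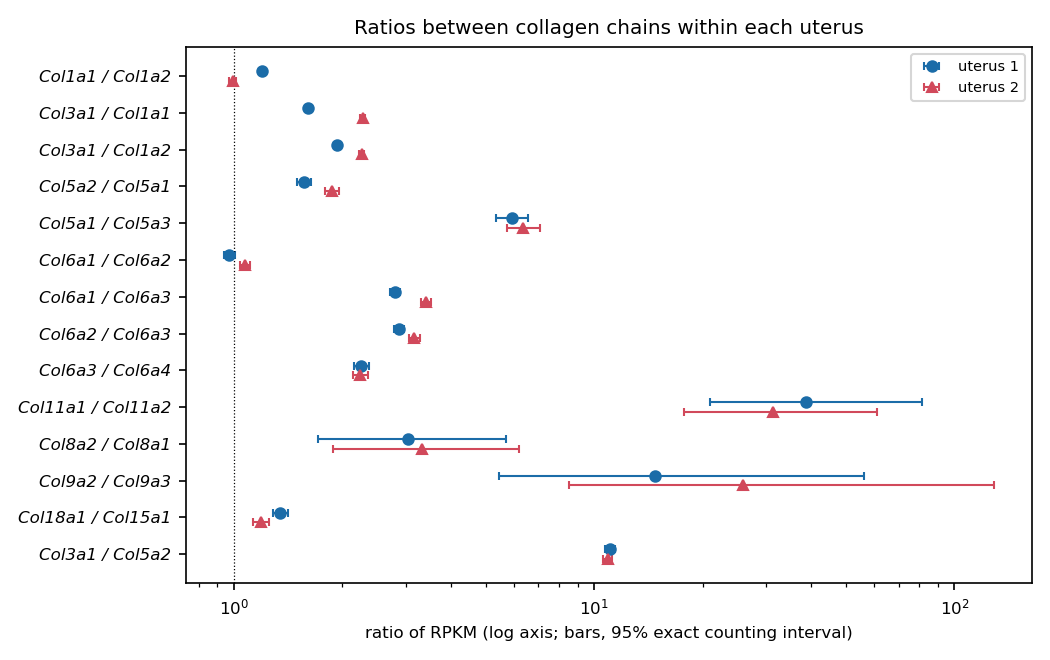
Ratios of RPKM between collagen chains within uterus 1 (circles) and uterus 2 (triangles) on a log axis, with bars for the 95% exact counting interval. Col1a1 over Col1a2 is 1.199 and 0.993, and Col6a3 over Col6a4 is 2.26 and 2.25.

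Members that neighbour each other in the genome were similar in level in 1 detected pair and differed in the others. Col6a1 and Col6a2 lie on the same strand of chromosome 10, 85387 bases apart, at 497 ± 7.25 and 486 ± 27.3 RPKM (SD, n = 2). Col3a1 and Col5a2 lie tail to tail on chromosome 1, 24624 bases apart, and Col3a1 was 11.1 times as high in uterus 1 and 10.9 times in uterus 2. On chromosome 9, Col6a5 lies between Col6a6 and Col6a4 on the same strand, 27984 and 29674 bases away, and was lower than both in each uterus. Col9a1 and Col19a1, 4944 bases apart on chromosome 1, were both near 0.

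Differences between the 2 animals were modest. Of the 29 members averaging 1 RPKM or more none was 2-fold apart, where 2.6% of all such genes were. Of the 19 members averaging 10 RPKM or more none was either, against 0.657% of all genes at that level. The log2 ratio of uterus 2 to uterus 1 (pseudocount 0.1 RPKM, which understates change in low genes) ran from -0.48 in Col1a1 to 0.57 in Col28a1. Of these genes 16 were higher in uterus 1 and 13 in uterus 2, with a median log2 ratio of -0.02 against 0.00067 for all genes. Col1a1 was the one member outside the central 95% of its level class: among the 470 genes of at least 100 RPKM on average that range ran from -0.47 to 0.43, and 18 genes (3.83%) were as far apart as Col1a1 or farther. Col28a1 rests on few reads, with a counting interval from -0.38 to 1.69. The intervals of Col20a1 (-0.38 to 1.06) and Col10a1 (-0.66 to 1.11) also reach past a 2-fold difference toward uterus 2, so these 3 intervals do not exclude one.

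**Figure D4:**
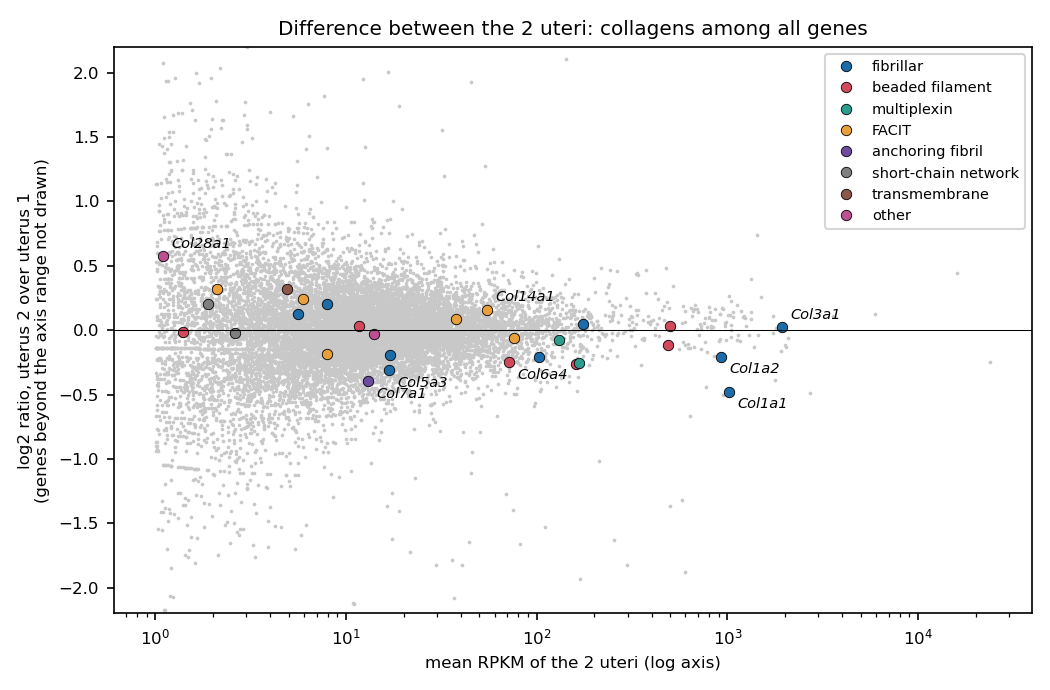
Log2 ratio of uterus 2 over uterus 1 against mean RPKM (log axis) for genes averaging 1 RPKM or more, all genes in grey and collagens coloured by class. The collagens lie between -0.48 (Col1a1) and 0.57 (Col28a1).

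Recovered reads were also compared by a two-sided exact binomial test with Benjamini-Hochberg adjustment over 15164 genes. This test compares these 2 libraries, not conditions, and covers counting error only. It called 9 of the 35 collagens tested, where 4.92% of all tested genes were called. All 9 were higher in uterus 1 (2.64% of all genes were called in that direction) and none was higher in uterus 2 (2.28% of all genes). At an unadjusted p under 0.05 in this exact test there were 12 members, the others being Col3a1 and Col14a1, higher in uterus 2, and Col11a1, higher in uterus 1. No share of all genes was taken at this unadjusted threshold, so whether 12 is many was not tested. Calls depend on depth: of the 14 members with at least 1000 reads in sum 7 were called, and of all genes at that depth 21.8%. The 3 members not tested were Col2a1, Col9a1 and Col19a1, each with under 6 reads in sum.

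Both type I genes were among the called. Col1a1 had a log2 ratio of -0.48 (95% counting interval -0.51 to -0.45, exact binomial test, adjusted p 2.4e-225), and Col1a2 of -0.20 (-0.23 to -0.18, adjusted p 9.8e-41 in the same exact test). Of type V, Col5a1 was called at -0.21 (exact binomial test, adjusted p 1.4e-07) and Col5a3 at -0.31 (adjusted p 0.0444). Col5a3 is no longer called with the smallest possible whole reads (exact binomial test, adjusted p 0.0524). Col3a1 and Col5a2 were not called, with log2 ratios of 0.02 (0.00 to 0.04) and 0.05 (-0.01 to 0.11).

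Of type VI, 3 of 6 genes were called: Col6a3 at -0.26, Col6a4 at -0.25 and Col6a2 at -0.11, where the exact binomial test gave adjusted p 1.1e-23, 1.6e-06 and 0.000121. Col18a1 was called at -0.26 and Col7a1 at -0.39, where that exact test gave adjusted p 1.8e-12 and 0.00112. None of the 7 FACITs tested was called, where 4.92% of all tested genes were, so this does not set the class apart. Among these FACITs, Col16a1, Col12a1 and Col14a1 alone had at least 1000 reads in sum. Col14a1 had the largest ratio toward uterus 2 among members with at least 1000 reads, 0.16 (0.05 to 0.27, exact binomial test, adjusted p 0.0580). Of the type IV genes, Col4a1 lay at 252 and 217 RPKM and Col4a2 at 150.3 and 120 RPKM, both called higher in uterus 1, and the other 4 were not called.

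Base composition, cell type markers and transcript length stood beside these differences. For base composition, the 9 called members had a transcript GC content of 53.9% to 61.6% (median 58.9%), and the 10 other members of at least 10 RPKM on average 48.0% to 61.4% (median 53.0%). Across these 19 members Spearman's rho of GC content and log2 ratio was -0.56, and across 7121 genes of that level -0.20, as a description over genes that share 2 libraries. Between 45% and 50% GC the median log2 ratio was 0.07 for 4 collagens and 0.03 for all genes. It was -0.11 and -0.01 between 50% and 55% (4 collagens), -0.20 and -0.04 between 55% and 60% (7 collagens), and -0.19 and -0.06 at 60% or more (4 collagens). The collagens were thus above all genes in the lowest of these ranges and below them in the other 3. For cell type, the summed RPKM of 6 stromal fibroblast markers was 1462 in uterus 1 and 1673 in uterus 2, and that of 6 smooth muscle markers 2025 and 2017. The sums were 370 and 396 RPKM for 6 epithelial markers, 193 and 186 RPKM for 6 endothelial markers and 42.6 and 46.4 RPKM for 5 leukocyte markers. All 12 stromal and muscle markers were detected. Over all lists the exact test called 6 of the 38 markers it tested, in both directions, against 4.92% of all tested genes. Of the 16 markers with at least 1000 reads in sum 4 were called, against 21.8% of all genes at that depth. Higher in uterus 2 were the stromal Dcn (log2 ratio 0.34) and Vim (0.22), the muscle Myh11 (0.16) and the epithelial Krt18 (0.42). Higher in uterus 1 were the muscle Acta2 (-0.14) and the endothelial Kdr (-0.46). The near-equal muscle sums thus hold Myh11 and Acta2 called in opposite directions, and the stromal Hoxa11, not called, had a ratio of -0.17. For transcript length, rho was -0.17 across the same 19 members and -0.05 across the 7121 genes. The part of each in the differences was not tested.

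**Figure D5:**
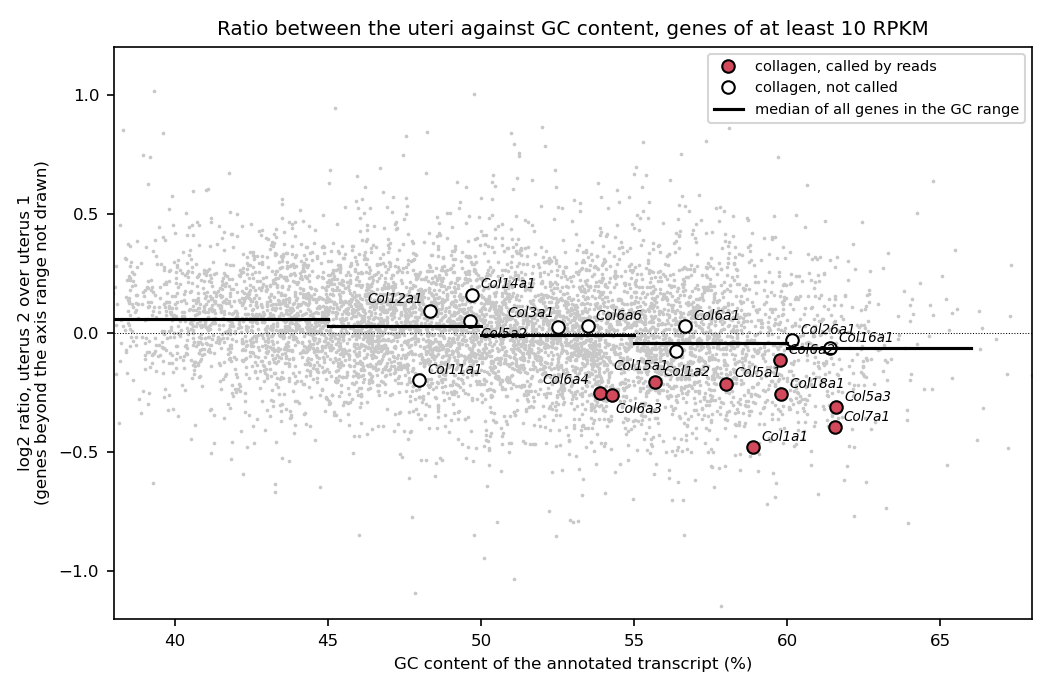
Log2 ratio of uterus 2 over uterus 1 against GC content of the annotated transcript (percent), for genes of at least 10 RPKM on average: all genes in grey, collagens as circles (filled where called by the exact binomial test), lines for the median of all genes in each GC range. The filled circles lie between 53.9% and 61.6% GC and below 0.

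The genes that make and handle collagen were described from a list of 41. At 1 RPKM or more in both uteri there were 37, with a list median of 24.1 ± 0.848 RPKM (SD, n = 2). Sparc, a collagen-binding glycoprotein, lay at 761 and 689 RPKM, and Serpinh1, the collagen chaperone HSP47, at 484 and 444 RPKM. P4hb, the shared subunit of prolyl 4-hydroxylase, lay at 316 and 317 RPKM. Its catalytic partners were lower, P4ha1 at 24.97 and 35.6 RPKM, P4ha2 at 31.5 and 31.1 RPKM and P4ha3 at 4.09 and 3.38 RPKM. Mia3, a collagen export receptor of cells in general, was listed at 0 in both uteri, so a listed 0 is not read as absence. The Mia3 entry lies on chr1_random, while Col2a1 and Col9a1 lie on chromosomes 15 and 1. Whether this placement bears on the 0 of Mia3 was not tested.

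All 3 lysyl hydroxylases were detected, Plod1 at 47.3 and 56.2 RPKM, Plod2 at 33.4 and 32.1 RPKM and Plod3 at 24.7 and 25.7 RPKM. Of the enzymes that cut procollagen, Bmp1 lay at 30.7 and 32.7 RPKM and Adamts2 at 33.5 and 30.8 RPKM, while Adamts3 and Adamts14 stayed at 5.08 RPKM or below. The enhancer of this cut, Pcolce, lay at 64.9 and 64.1 RPKM. All 5 lysyl oxidase genes, which cross-link fibrils, were detected, from Loxl1 at 30.2 and 29.1 RPKM to Loxl4 at 1.30 and 1.47 RPKM. Among receptors, Ddr2 lay at 49.2 and 49.3 RPKM and Itga1 at 21.6 and 21.8 RPKM, whereas Itga11 lay at 0.687 and 0.666 RPKM.

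The exact binomial test called 6 of the 39 listed genes it tested, 4 higher in uterus 1 and 2 higher in uterus 2. Of all tested genes 4.92% were called, 2.64% and 2.28% in these directions. Of the called genes, Sparc, Serpinh1, Glt25d1 and Plod1 had at least 1000 reads in sum. P4hb, Ddr2, Adamts2, Bmp1, Loxl2, Mrc2 and Itga1 had that depth too and were not called. Of all genes at that depth 21.8% were called. Sparc had a log2 ratio of -0.14, Serpinh1 of -0.12, Fkbp10 of -0.41 and Glt25d1 (Colgalt1), a collagen galactosyltransferase, of -0.28. P4ha1 differed the other way at 0.51 (exact binomial test, adjusted p 4.3e-06), as did Plod1 at 0.25 (adjusted p 0.0374). The genes of collagen handling thus did not all differ in the direction of the 9 called collagens.

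Promoter letters were compared last, over the 250 bases before the start of transcription on either strand, in RefSeq sequences of build GRCm38.p6. Of the 38 members, 30 had an entry, which did not include Col1a1, Col2a1, Col5a2, Col9a3, Col12a1, Col14a1, Col22a1 and Col26a1. The GC-box letters GGGCGG were found in 18 of the 30 (60%), against 32.9% of 27025 promoters. CCAAT was found in 9 (30.0%, against 34.5%) and TATAAA in 5 (16.7%, against 12.97%). TATAAA was found in Col3a1, Col10a1, Col11a2, Col13a1 and Col17a1, of which Col3a1 alone lay above 2.03 RPKM, and Col1a2 held CCAAT and GGGCGG. A match is a description of letters and not of a used site.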

How the data were processed

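The data are 2 RNA-seq libraries, 1 per animal, made with the TruSeq RNA kit from TRIzol-extracted uterus after poly-A selection, per the labels' protocols and the series' design text. The authors deposited RPKM per gene, per the series' design text. The submitters' processing notes name TopHat, edgeR and mm9 without giving their roles. How reads were assigned to genes, with which annotation and whether by strand, is not given in the sources used here. A second deposited table adds coordinates and holds the same values for all 38 genes. Starts were read as counted from 0 and are printed counted from 1.

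RPKM is not a count. Since RPKM is reads divided by length and library size, whole reads and whole lengths were recovered. Single-exon genes gave scaling totals of 3834174 and 4256101, and 95.0% of 545 and 94.2% of 551 such genes came out whole within 0.001 reads. Each gene's smallest whole solution was multiplied to approach a GENCODE M1 transcript length, which applied to 6 members. The recovery and the exact binomial test were tested on simulated data. Intervals reflect counting error alone, and PCR duplicates are not separate molecules. The p-values compare these libraries against counting error alone, and no spread between animals enters them.

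Detection meant 1 RPKM in both libraries. Ratios used a pseudocount of 0.1 RPKM, and 2-fold calls a mean of 1 RPKM or more. The exact test used genes with at least 6 reads in sum and a Benjamini-Hochberg threshold of 0.05. Every member is named, and further genes come from lists of collagen biosynthesis and cell type markers. Members and lists were chosen with earlier results of these data known. Protein sequences were not used here, so the planned description of protein repeats was replaced by GGN codon runs in GENCODE M1 coding sequences, read from NCBIM37. Python 3.11.15, pandas 2.3.3 and scipy 1.17.1 were used.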

Additional observations from a re-analysis of the deposited data

How the results depend on the processing

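The count of detected collagens was 25 at 2 RPKM, 31 at 0.5 RPKM and 32 on the TPM scale, against 28, and 28 to 29 in single libraries. The list of collagen biosynthesis genes gave 34, 39 and 39 under the same settings, against 37. The TPM scale changes the unit, so the medians moved by construction, to 23.6 for the collagens and 57.1 for the biosynthesis list. The collagen share of the total was 1.65% over NM_ identifiers and 3.19% as a share of recovered reads, against 1.41%. Long transcripts weigh more in reads, and RPKM removes this. No collagen was 2-fold apart under any of the 5 alternatives run. The exact binomial test called 8 collagens with the smallest possible whole reads and 9 with at least 20 reads in sum, the first without Col5a3. Taking either library alone moves a mean by less than 1 SD by construction. With GENCODE M1 transcript lengths, added after seeing the data, 6 of the 14 chain ratios moved by more than 1 SD: Col1a1 over Col1a2 to 0.903, Col3a1 over Col1a1 to 2.46, Col6a1 over Col6a3 to 2.43, Col6a2 over Col6a3 to 2.31, Col6a3 over Col6a4 to 2.77 and Col18a1 over Col15a1 to 1.13. Counting intervals reach past a 2-fold difference in Col8a1, Col9a3, Col10a1, Col11a2, Col13a1, Col17a1, Col19a1, Col20a1, Col25a1 and Col28a1, and none could be given for Col2a1 and Col9a1, so a difference of that size is not excluded there. No paired analysis was possible because both samples form a single group.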
